A study of Rattus norvegicus with 3 samples.

Results

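Platelets loaded with sorafenib were set against control platelets, gene by gene, over the transcripts that stood clear of the array's background. The members are 1961 of 15037 named genes, those whose mean log2 signal over the 3 arrays reached 7.69, a level that 95% of the negative control features stay under. The choice used the mean and no difference between arrays. At the edge, E2f6 lay just inside with a mean of 7.694 and Slc41a3 just outside with 7.690.

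Control platelets (PLT) and sorafenib-encapsulated platelets (SOR-PLT) came from blood of F344 rats, an inbred strain, and each array held the pooled suspensions of 5 animals. A slow spin (200 g, 7 minutes) separated the platelets from blood. For loading, 10 µg of sorafenib was given to the platelets for 30 minutes at 37 °C, and they were then washed (1000 g, 5 minutes). The third array held lenvatinib-encapsulated platelets (LEN-PLT), made in the same way with 10 µg of lenvatinib. The labels do not state whether control platelets went through the same incubation and wash, so drug and handling cannot be told apart. Each group has 1 array, so every value below is a description of 2 pooled preparations, with no error, no p-value and no replicate check, and the number of arrays limits the precision.

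Platelets are cell fragments without a nucleus that megakaryocytes of the bone marrow shed into the blood. Their messenger RNA is inherited from the parent cell, can be spliced and translated, and decays as the platelet ages, with no new transcription from a nucleus. Sorafenib blocks RAF kinases and several receptor tyrosine kinases, among them receptors for vascular endothelial growth factor, platelet-derived growth factor and stem cell factor. Those kinases act on proteins, and a change in their activity is not read by an RNA array.

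The 2 arrays were close to each other. Of the 1961 genes, 780 read higher in the sorafenib array, 763 read lower and 418 had exactly the same value, and the median difference, sorafenib minus control, was 0. The SD of the differences over genes was 0.24 on the log2 scale, the scale of every signal and difference given here, and 76.8% of genes lay within 0.25 of zero. At least 2-fold higher were 2 genes, 0.102% of the 1961, and at least 2-fold lower was 1 gene, 0.051%, so that 0.153% were 2-fold apart in either direction. Among all 15037 named genes the shares were 0.213% higher, 0.299% lower and 0.512% in either direction. At least 1.5-fold higher were 37 genes, 1.89%, and at least 1.5-fold lower were 35 genes, 1.78%, against 2.22% and 2.21% of all named genes. Together they are 3.67% of the members, beside 4.43% of all named genes. In 18 of these 72 genes the control or the sorafenib value itself lay under the background level. The lenvatinib array, compared with the same control array, had 0.408% of members at least 2-fold higher and 0.204% lower, and 3.31% and 2.4% at least 1.5-fold higher and lower. Over the 1153 negative control features the differences between the sorafenib and control arrays had an SD of 0.82. For the 13076 named genes under the background level the SD was 0.26, so the wider spread belongs to the control features.

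Differences were mostly smaller at higher signal. For the 530 genes with a mean from 7.69 to 9, the SD was 0.29 and 6.98% were at least 1.5-fold apart. The share was 2.82% of 284 genes from 9 to 10, 5.30% of 434 genes from 10 to 12, 1.14% of 263 genes from 12 to 14, 0.485% of 206 genes from 14 to 16 and 0 of 244 genes from 16 up, where the SD was 0.12. At the ceiling of the deposited values, 19.93, stood 16 genes on the control or the sorafenib array, for which no difference can be read. They include Pf4, a platelet chemokine, Clec1b, the podoplanin receptor, the cytoskeletal genes Actb, Myl9, Tmsb4x and Pdlim1, the ferritin genes Fth1 and Ftl1, and Hba-a1. On all 3 arrays 226 genes had the same value, and 221 more had 1 value shared by both drug arrays that differed from control, so ties between the 2 drug arrays are frequent in these values.

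**Figure D1:**
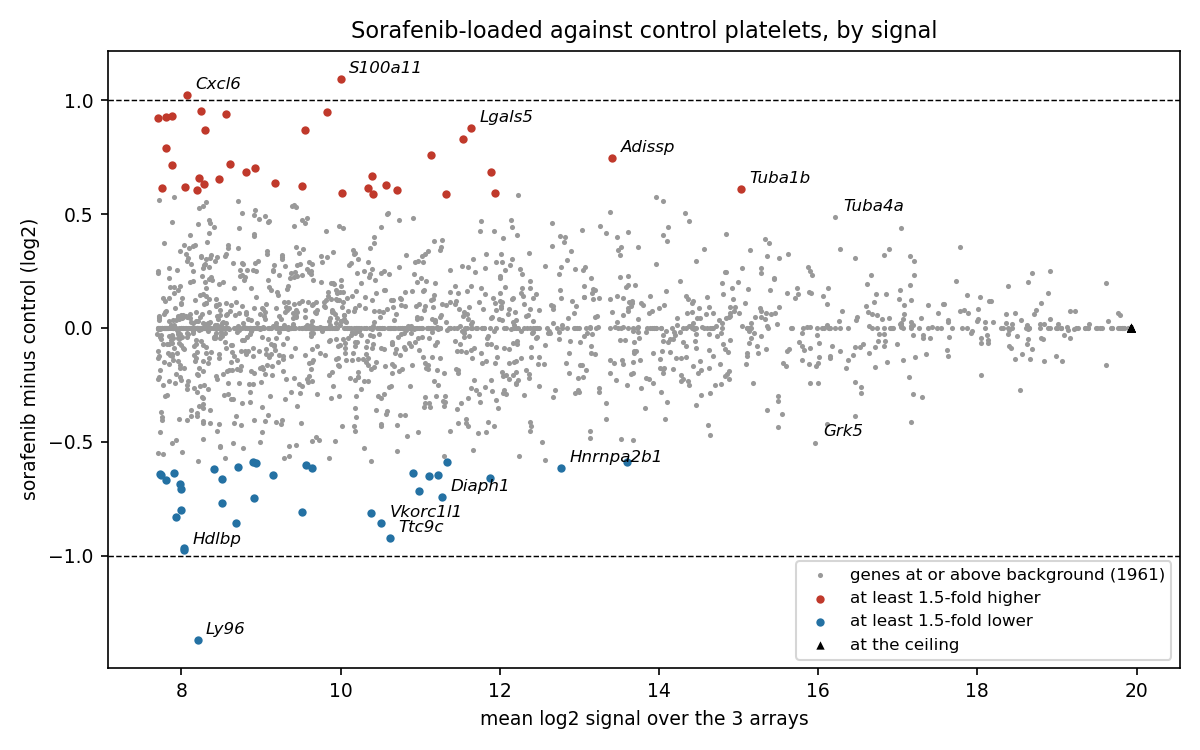
Difference of log2 signal, sorafenib array minus control array, against the mean log2 signal over the 3 arrays, with 1 point for each of the 1961 genes; dashed lines mark 2-fold. Genes at least 1.5-fold higher (37) or lower (35) are coloured, triangles mark the 16 genes at the ceiling, and the spread of points narrows from left to right.

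The gene furthest above control was S100a11, a calcium-binding protein of the S100 family. It read 9.47 in control, 10.56 after sorafenib and 9.97 after lenvatinib, so the sorafenib array was 2.13-fold above control. Here and below, 3 values in a row stand for the control, sorafenib and lenvatinib arrays in that order. Cxcl6, a chemokine that draws neutrophils, read 7.70, 8.72 and 7.80, with sorafenib 2.03-fold above control, and its lenvatinib value lay beside control. The control value of Cxcl6 was only just above the background level of 7.69. S100a11 and Cxcl6 were the 2 members at least 2-fold higher.

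Ecm1, a secreted glycoprotein of the extracellular matrix, read 7.60 in control, 8.55 after sorafenib and 8.59 after lenvatinib. Ly6c, a surface protein of leukocytes, read 9.52, 10.47 and 9.48, high with sorafenib alone of the 3 arrays. Trem3, a receptor of myeloid cells, read 7.93 in control and 8.87 in both drug arrays. Lgals5, a galectin of rat red cells, read 10.94, 11.82 and 12.17. In Ecm1, Trem3 and Lgals5 control was the low array and both drug arrays were high, and the control value of Ecm1 lay under the background level of 7.69.

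Orai2, a subunit of store-operated calcium channels, read 7.46 in control, 8.38 after sorafenib and 7.79 after lenvatinib. Cast, calpastatin, the inhibitor of the calpain proteases, read 9.26, 10.13 and 9.28. Stxbp2, which guides the membrane fusion of granules, read 10.69, 11.45 and 11.27. Cast thus stood out with sorafenib and Stxbp2 read high with both drugs. Ankrd27, a regulator of endosomal Rab proteins, read 7.62, 8.48 and 8.79, and Plaat3, a phospholipase, read 7.25, 8.17 and 7.70. Zfp455, Tsc22d4, Ppdpf and Adissp complete the 15 highest, with differences from 0.74 to 0.93. The control values of Orai2, Ankrd27, Plaat3, Zfp455 and Ppdpf also lay under 7.69, so these genes are members through the arrays where they read high.

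At the other end stood Ly96, the co-receptor through which Toll-like receptor 4 senses endotoxin. It read 8.86 in control, 7.49 after sorafenib and 8.27 after lenvatinib, so that sorafenib stood at 38.7% of control and lenvatinib between them. Its sorafenib value lay below 7.69, the level that defines background here, so the low side of this difference is itself a background reading. Ly96 was the only member at least 2-fold lower.

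Hdlbp, vigilin, an RNA-binding protein of many domains, read 8.45 in control, 7.48 after sorafenib and 8.16 after lenvatinib. Ddx6, a helicase that holds messenger RNA out of translation and promotes its decapping, read 9.18, 8.32 and 8.56. Ascc3, a helicase that also splits stalled ribosomes, read 8.43, 7.46 and 8.19, and Hnrnph2, a splicing regulator, read 8.84, 8.07 and 8.60. In all 4 genes control was the highest of the 3 arrays and sorafenib the lowest.

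Ppp3r1, the regulatory subunit of the calcium-dependent phosphatase calcineurin, read 10.85 in control, 10.04 after sorafenib and 10.26 after lenvatinib. Zdhhc21, an enzyme that attaches palmitate to proteins, read 9.89, 9.08 and 9.57. Vkorc1l1, a vitamin K epoxide reductase, read 10.97, 10.11 and 10.45. For these genes the lenvatinib array lay between the other two. Diaph1, a formin that nucleates actin filaments, read 11.78 in control and 11.04 after sorafenib, with a lenvatinib difference of -0.78, and Utrn, utrophin, which ties actin to the membrane, read 11.26, 10.54 and 11.16. Idh2, the mitochondrial isocitrate dehydrogenase, read 8.26, 7.44 and 8.09. Ttc9c, Ubr7, Zfp131 and Pcmtd1 complete the 15 lowest, with differences from -0.92 to -0.71. The sorafenib values of Hdlbp, Ascc3, Idh2 and Ubr7 lay under 7.69.

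**Figure D2:**
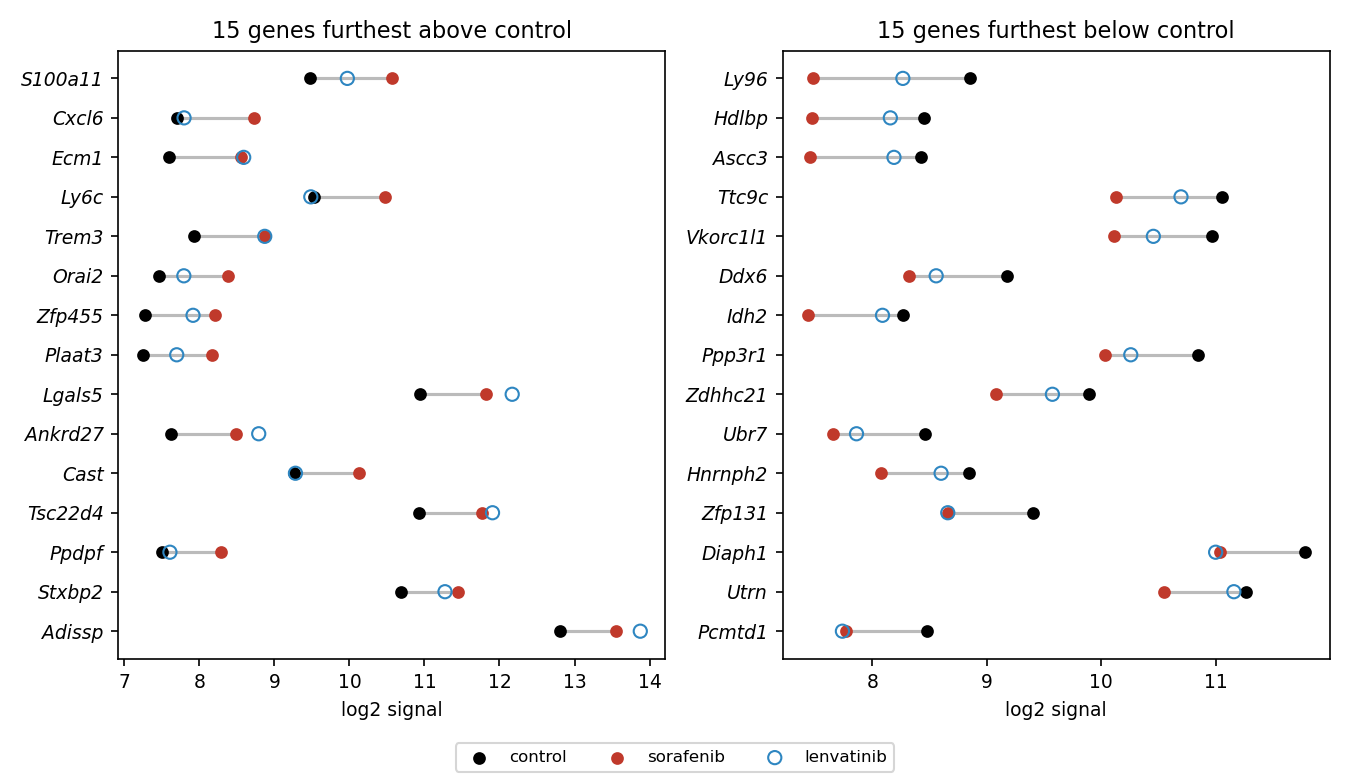
Log2 signal on the control, sorafenib and lenvatinib arrays for the 15 genes furthest above control (left) and the 15 furthest below (right), ranked by the sorafenib difference; grey lines join control and sorafenib. Cxcl6, Ly6c and Cast have the lenvatinib value beside control, and Ecm1, Trem3, Zfp131, Diaph1 and Pcmtd1 have it beside sorafenib.

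Among genes with a mean signal from 12 up, where readings varied less, the furthest above control was Adissp, which codes for a secreted protein of fat tissue, at 12.81 in control, 13.56 after sorafenib and 13.88 after lenvatinib. It was followed by Tuba1b, described below, and by Nrg1, neuregulin, a ligand of ERBB receptors, at 11.81, 12.39 and 12.47. Rab11b, a GTPase of recycling endosomes, read 13.70, 14.28 and 13.92, and Rpap1, a partner of RNA polymerase II, read 13.71, 14.26 and 14.19. In each of them control was the lowest of the 3 arrays.

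The lowest of the same signal range was Hnrnpa2b1, a carrier and splicing regulator of messenger RNA, at 13.15 in control, 12.53 after sorafenib and 12.62 after lenvatinib. Hycc1, part of the complex that makes phosphatidylinositol 4-phosphate at the cell membrane, read 14.01, 13.42 and 13.36. Ociad1 read 13.06, 12.48 and 12.17, and Rbms1, an RNA-binding protein, read 12.59, 12.03 and 12.08. Grk5, a kinase that turns off G protein-coupled receptors such as those for thrombin, read 16.28, 15.78 and 15.82. In these genes control was the highest array and both drug arrays lay close together, except Ociad1, where lenvatinib was lower still.

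Genes for which sorafenib stood apart from both other arrays were counted by a rule chosen after the values were seen, a distance of at least 1.5-fold in the same direction from control and from lenvatinib. They numbered 10 above, 0.51% of the members, and 9 below, 0.459%. By the same rule the control array stood above both others in 17 genes and below both in 16, and the lenvatinib array in 14 and 13, so the sorafenib array had the smallest counts of the 3. Above were S100a11, Cxcl6, Ly6c, Orai2, Cast and Ppdpf, with Slc25a4, Rbm3, Serpinb6b and Ntan1. The control values of Orai2 and Ppdpf lay under the background level, and that of Cxcl6 only just above it. Slc25a4, the ADP/ATP carrier of mitochondria, read 8.82 in control, 9.52 after sorafenib and 8.44 after lenvatinib. Rbm3, an RNA-binding protein induced by cold, read 8.07, 8.70 and 8.07. Ntan1, an amidase of the N-degron pathway, read 11.89, 12.49 and 11.42, so that sorafenib was the high array and lenvatinib the low one.

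Below both others were Ly96, Hdlbp, Ascc3, Idh2, Utrn, Filip1, Sacm1l, Inpp5f and Tlk2. Sacm1l and Inpp5f both code for Sac-domain phosphatases that remove phosphate from phosphoinositides. Sacm1l read 8.03 in control, 7.37 after sorafenib and 8.03 after lenvatinib, and Inpp5f read 11.36, 10.71 and 11.60. Tlk2, a kinase of chromatin assembly, read 9.04, 8.45 and 9.34. The sorafenib values of Inpp5f, Utrn and Tlk2 lay above 7.69, and those of Ly96, Hdlbp, Ascc3, Idh2, Filip1 and Sacm1l lay under it.

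**Figure D3:**
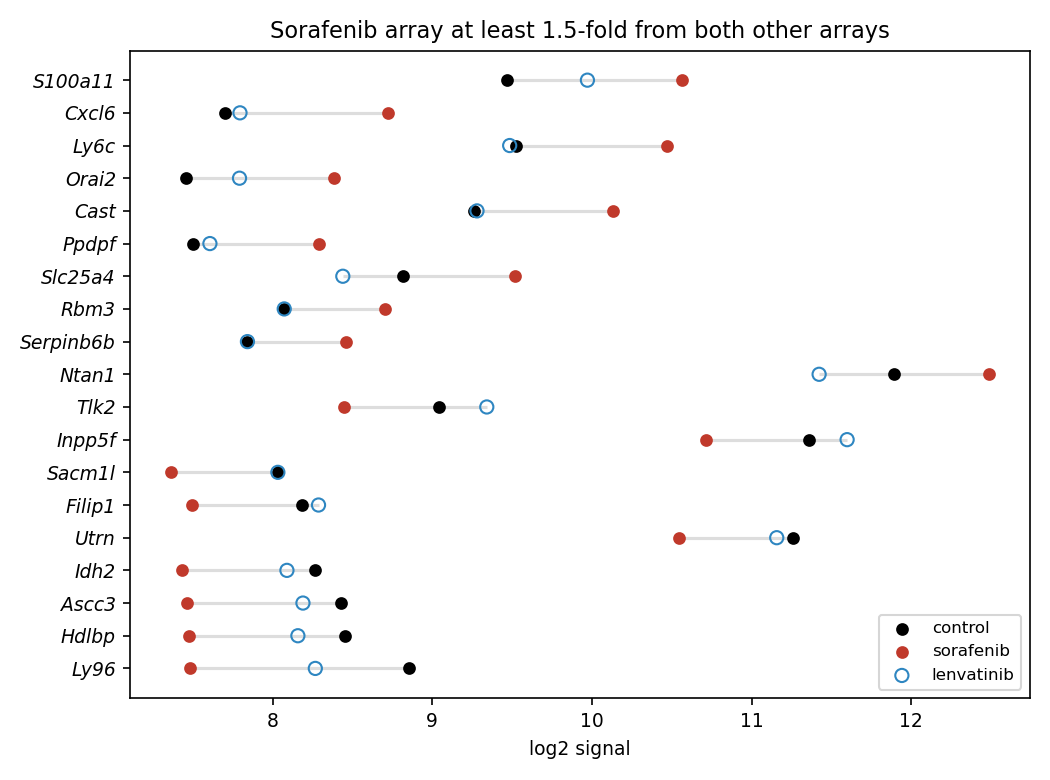
Log2 signal on the 3 arrays for the 19 genes whose sorafenib value lay at least 1.5-fold above (10 genes) or below (9 genes) both the control and the lenvatinib value. Grey lines span the 3 values; control and lenvatinib coincide for Rbm3, Serpinb6b and Sacm1l.

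The label of the samples was checked against marker genes of blood cells. All 9 measured platelet markers were members, 3 of them at the ceiling, and their level summed on the linear scale was 22.43 in control and 22.44 after sorafenib in log2 units. Of 22 measured red-cell markers 13 were members, 1 of them, Hba-a1, at the ceiling, with a summed level of 20.57 and 20.55. Genes at the ceiling are the largest terms of the platelet and red-cell sums and cannot show a difference. The near-equal sums are therefore in part fixed by the ceiling. Of the 13 red-cell members 4 read higher, 5 lower and 4 the same, and Lgals5, given above, is on that list. None of 16 T cell, 10 NK cell and 11 hepatocyte markers reached the background level as a mean over the arrays. Leukocyte lists held 2 of 13 monocyte, 2 of 10 B cell and 1 of 16 neutrophil markers above it, beside 1961 of all 15037 named genes. The B cell markers were Cr2, at 10.95 on all arrays, and Bank1, at 9.02, 9.03 and 9.03. The summed monocyte level was 15.16 in control and 15.40 after sorafenib, carried by Lyz2, lysozyme, at 15.13, 15.37 and 15.34. The other monocyte marker above background, Ccr2, read 8.03, 8.03 and 8.09. The neutrophil sum was 9.43 and 9.33, with S100a9 at 8.37, 7.97 and 7.88. Genes named above that leukocytes also express are S100a11, Cxcl6, Ly6c, Trem3 and Ly96. They stand beside a higher Lyz2, a lower S100a9 and nearly unchanged Ccr2, Cr2 and Bank1. The part of other blood cells in S100a11, Cxcl6, Ly6c, Trem3 and Ly96 was not tested. In pooled platelets a change in the number of such cells and a change of RNA in each of them cannot be told apart.

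Of 18 members on the adhesion receptor list, 5 read higher, 6 lower and 7 the same, with a median of 0, and 0 were at least 1.5-fold apart, beside 3.67% of all members. The median control signal of this list was 17.49, and from 16 up 0 of all 244 members were that far apart. Itgb1, the beta chain of the collagen, laminin and fibronectin integrins, read 18.65 in control, 18.38 after sorafenib and 18.58 after lenvatinib. Pecam1, an adhesion molecule that restrains activation, read 12.57, 12.87 and 13.10. Gp1ba, the receptor subunit that binds von Willebrand factor, read 17.53 in both arrays, and Itgb3, of the fibrinogen receptor, read 19.08 and 19.04. Of 26 members among agonist receptors and G proteins, 9 read higher and 10 lower. Ptgir, the prostacyclin receptor, read 8.43, 8.05 and 8.11, P2ry12, the ADP receptor that antiplatelet drugs block, read 17.90, 18.04 and 18.17, and Gna12, a G protein alpha subunit, read 14.17, 14.46 and 14.76.

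Signalling below the receptors for collagen and podoplanin was described over 24 members, of which 11 read higher and 8 lower, with a median of 0 and 0 at least 1.5-fold apart, beside 3.67% of all members. Pik3r1, the regulatory subunit of phosphoinositide 3-kinase, read 11.54 after sorafenib and 11.95 after lenvatinib, with a sorafenib difference of -0.46 and a lenvatinib difference of -0.05. Pik3cb, the catalytic subunit that sustains integrin activation, read 9.39, 9.07 and 9.45. For both genes sorafenib was the low array and the other two lay together. Btk, a kinase of the same pathway, read 14.32, 14.67 and 14.71, and Csk, which restrains Src kinases, read 11.45, 11.76 and 11.80. Among 18 members that activate integrins or link them to actin, 7 read higher and 5 lower. Ptk2b, a focal adhesion kinase, read 14.12, 14.60 and 14.42, and Vcl, vinculin, read 14.62, 14.33 and 14.63.

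Members of the actin and myosin list divided evenly, with 16 higher, 16 lower and 11 tied of 43. At least 1.5-fold lower were 3 of the 43, beside 1.78% of all members, and 0 were higher by that much. These were Diaph1, given above, Rock2, a kinase that drives myosin contraction, at 11.53 in control, 10.88 after sorafenib and 10.93 after lenvatinib, and Iqgap1, a scaffold of actin filaments, at 8.85, 8.23 and 8.13. Both drug arrays were lower than control for each of the 3 genes.

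The alpha tubulin genes among the members were higher in the sorafenib array. Microtubules form the coil under the membrane that keeps a resting platelet flat. Tuba1b read 14.55 in control, 15.16 after sorafenib and 15.36 after lenvatinib, and Tuba4a read 15.78, 16.27 and 16.60. Tuba1c read 9.05 in control and 9.59 in both drug arrays, and Tuba1a read 16.02, 16.37 and 16.45. All 4 alpha tubulins among the members were higher, with a median of 0.51, beside 780 higher of all 1961 members and a median of 0. In all, 7 alpha tubulins were measured, and the others lay under the background level, among them Tuba8 at 7.63, 7.63 and 7.76. Of 5 beta tubulins 3 were higher and 2 lower, with a median of 0.05. This family was singled out after the values were seen. Alpha tubulin genes are near-identical in sequence, so transcripts of 1 gene may be read by the features of another and the 4 values cannot be treated as separate. The whole list of tubulin and microtubule genes had 7 higher and 6 lower of 13, and Kif5b, a kinesin motor, read 13.48, 13.08 and 13.42.

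The sequences around the start of Tuba1b, Tuba1c, Tuba4a and S100a11 are shown because the tubulins read higher together and S100a11 stood furthest above control. Platelets have no nucleus, so these sequences belong to the genes of the megakaryocyte. Each holds 250 bases before and 50 after the start, from RefSeq on build GRCr8, on the strand of the gene. The Tuba1b promoter is at chr7:131972538-131972837 (minus strand), that of Tuba1c at chr7:132070734-132071033 (plus strand), that of Tuba4a at chr9:84162535-84162834 (minus strand) and that of S100a11 at chr2:181874882-181875181 (plus strand). Capitals mark matches on either strand to the GC box (GGGCGG) and the CCAAT box (CCAAT). Matches to a GATA motif (AGATAA) and an ETS motif (CCGGAA) were searched as well and would be in capitals too.
Tuba1b: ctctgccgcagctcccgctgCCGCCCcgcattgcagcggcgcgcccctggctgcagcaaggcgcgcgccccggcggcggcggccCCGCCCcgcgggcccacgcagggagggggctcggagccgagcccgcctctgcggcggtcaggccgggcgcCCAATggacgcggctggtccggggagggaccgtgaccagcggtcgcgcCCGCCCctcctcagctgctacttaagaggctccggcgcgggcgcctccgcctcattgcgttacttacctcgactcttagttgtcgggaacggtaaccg
Tuba1c: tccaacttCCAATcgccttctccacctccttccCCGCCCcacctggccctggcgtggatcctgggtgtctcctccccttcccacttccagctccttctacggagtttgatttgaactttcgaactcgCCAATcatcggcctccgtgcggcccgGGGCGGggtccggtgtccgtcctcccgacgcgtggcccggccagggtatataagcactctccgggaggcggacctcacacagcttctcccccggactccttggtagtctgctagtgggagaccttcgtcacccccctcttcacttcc
Tuba4a: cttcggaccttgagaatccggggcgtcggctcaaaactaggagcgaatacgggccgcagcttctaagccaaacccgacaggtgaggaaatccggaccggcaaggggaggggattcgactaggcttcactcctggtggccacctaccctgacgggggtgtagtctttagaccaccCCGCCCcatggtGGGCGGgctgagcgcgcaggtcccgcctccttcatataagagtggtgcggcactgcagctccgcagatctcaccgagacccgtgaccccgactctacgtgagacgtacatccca
S100a11: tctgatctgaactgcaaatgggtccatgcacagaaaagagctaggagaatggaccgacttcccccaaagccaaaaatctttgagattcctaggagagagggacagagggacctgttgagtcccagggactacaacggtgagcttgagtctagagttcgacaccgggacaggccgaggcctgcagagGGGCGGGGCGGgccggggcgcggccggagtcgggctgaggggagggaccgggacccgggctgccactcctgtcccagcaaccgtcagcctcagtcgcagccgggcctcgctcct
The GC box letters were found 3 times in Tuba1b and 2 times in each of Tuba1c, Tuba4a and S100a11, and the 2 matches of S100a11 overlap each other. No base lay in matches to 2 different motifs. The CCAAT letters were found 1 time in Tuba1b, 2 times in Tuba1c and 0 times in the other promoters, and the GATA and ETS letters 0 times in all 4.

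Promoters were found for 1654 of the 1961 members, 28 of the 37 at least 1.5-fold higher and 29 of the 35 at least 1.5-fold lower. A GC box was present in 68.4% of the members' promoters, against 34.9% of the 27457 promoters in the table, 53.6% of the higher genes and 65.5% of the lower ones. CCAAT letters were in 38.5% of members, 37.7% of all promoters, 46.4% of the higher genes and 65.5% of the lower ones. ETS letters were in 29.6% of members, 15.8% of all, and 12 of 28 higher and 4 of 29 lower genes. GATA letters were in 6.41% of members, 11.3% of all, and 5 of 28 and 2 of 29. The last counts are small, and a match is a run of letters and not a bound site.

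Of 27 genes of granule release and Rab traffic 13 read lower, 9 higher and 5 the same, with a median of 0, beside 763 lower and 780 higher of all 1961 members. Stxbp2 and Unc13d, both needed for granules to dock and fuse, were the furthest above control on this list, which does not hold Rab11b. Unc13d read 9.26 in control and 9.74 in both drug arrays. Sytl4, a Rab27 effector on granules, read 8.98 and 8.47 in both drug arrays. Slc18a2, the transporter that loads serotonin into dense granules, read 12.25, 11.82 and 11.71. Granule contents had 5 higher, 6 lower and 7 tied of 18. Besides Ecm1, Tgfb1, a growth factor of alpha granules, read 16.52, 16.84 and 17.14, and Angpt1, a ligand of the TIE2 receptor, read 17.45, 17.33 and 17.29.

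The calcium handling list, which does not hold Orai2, given above, was balanced at 7 higher, 7 lower and 3 tied of 17. Apart from S100a11, Atp2a2, the calcium pump of the endoplasmic reticulum, read 13.28 in control, 12.83 after sorafenib and 13.30 after lenvatinib, so sorafenib was the low array. Micu2, a gatekeeper of mitochondrial calcium uptake, read 9.29, 8.99 and 9.08. Of 5 eicosanoid enzymes 3 read higher and 1 lower. Hpgds, the prostaglandin D synthase of blood cells, read 7.96, 8.40 and 8.87, and Ptgs1, the cyclooxygenase that aspirin blocks in platelets, read 17.98, 18.02 and 18.03.

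The kinases that sorafenib inhibits mostly read under background, as did most named genes. Of 13 listed kinases 10 had a named feature. Of these 10, 1 was a member, beside 1961 of all 15037 named genes. This was Kdr, a receptor for vascular endothelial growth factor, at 8.98 in every array. The sign of its difference, below 0.01 in size, depends on the scaling. The other 9 with a named feature read from 3.05 for Fgfr1 to 6.77 for Araf in control, and each had a mean under background. MAP kinase pathway genes had 4 higher, 5 lower and 3 tied of 12. Mknk1, a kinase that ERK and p38 activate, read 11.77 in control and 12.17 in both drug arrays, and Map2k1, the kinase directly below RAF, read 11.46, 11.16 and 11.32. Of 22 immediate early genes, Egr1 was the single member, at 9.16, 9.79 and 9.59, at least 1.5-fold higher with sorafenib. On the Toll-like receptor list 3 of 31 measured genes were members. Apart from Ly96 these were Map3k7, a kinase that relays the signal to NF-kB, at 14.36, 14.13 and 14.32, and Rela, a subunit of NF-kB, at 8.19 on all arrays.

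Of 11 apoptosis genes 5 read higher, 3 lower and 3 the same, with a median of 0. Cflar, an inhibitor of caspase 8, read 7.49 in control, 8.10 after sorafenib and 7.69 after lenvatinib, its control value under background. Bcl2l1, whose product keeps platelets alive, read 16.30, 16.60 and 16.48. Bnip3l, a mitophagy receptor, read 16.50, 16.69 and 16.67, and Mcl1, a short-lived survival protein, read 9.14, 8.97 and 8.95. Of 12 members of the integrated stress and unfolded protein responses, 5 read higher and 5 lower, with a median of 0. Asns, asparagine synthetase, read 8.83, 9.29 and 9.13, and P4hb, a disulphide isomerase, read 10.91, 11.29 and 11.31. In both genes the drug arrays were above control. Atf4, a regulator that switches on amino acid synthesis genes, read 15.29, 15.61 and 15.18, high with sorafenib, and Canx, calnexin, read 14.46, 14.21 and 14.46.

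Among 20 redox, iron and ferroptosis genes 6 read higher, 5 lower and 9 the same. Glrx, glutaredoxin, read 11.60 in control, 12.06 after sorafenib and 11.63 after lenvatinib, and Mt1, a metallothionein that binds zinc and copper, read 9.02, 9.49 and 8.79. In both, sorafenib was the high array. Prdx6, a peroxiredoxin, read 15.19, 15.56 and 15.38. Cat, catalase, read 11.45, 11.14 and 12.19, low with sorafenib and high with lenvatinib.

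Of 18 splicing genes 9 read lower, 5 higher and 4 the same, with a median of -0.04, and 1 was at least 1.5-fold lower, beside 1.78% of all members. Sf3b6, of the complex that finds the branch point, read 10.76 in control, 10.22 after sorafenib and 11.13 after lenvatinib. Hnrnpl read 9.96, 9.48 and 9.61, and Hnrnpa3 read 12.30, 11.95 and 11.70. As a family grouped by symbol after the values were seen, 10 of 15 hnRNP genes read lower with sorafenib, 3 higher and 2 the same, with a median of -0.25, beside 763 lower of all 1961 members and a median of 0. The same genes had a median of -0.24 after lenvatinib, a comparison that shares the control array. Of 5 RNA decay genes 3 read lower and 1 higher. Besides Ddx6, Dcp2, the enzyme that removes the cap, read 10.69, 10.33 and 10.32, and Cnot4, a ubiquitin ligase of the CCR4-NOT complex, read 9.65, 9.96 and 9.88.

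Ribosomal protein genes were balanced, with 29 higher, 28 lower and 7 tied of 64, with a median of 0. At least 1.5-fold lower were 3 of the 64, beside 1.78% of all members, and 0 were higher by that much, beside 1.89%. Rps25 read 12.31 in control, 11.66 after sorafenib and 11.66 after lenvatinib, Rpl27 read 10.11, 9.51 and 9.08, and Rpl24 read 9.33, 8.74 and 8.62. For these genes both drug arrays were low. Rpl36 read 10.49, 10.99 and 10.28, high with sorafenib. Single values are uncertain here, because processed copies of these genes lie elsewhere in the genome. Translation factors had 6 higher and 11 lower of 20, their median being -0.01 and their mean, of opposite sign, 0.01. Gspt1, a termination factor, read 8.92, 8.59 and 8.77, and Eef2, an elongation factor, read 10.83, 11.12 and 10.87.

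Protein turnover and energy genes showed no common direction. Of 10 proteasome genes 4 read higher and 5 lower, with a median of -0.06. Psme4, an activator of the proteasome, read 13.77 in control, 13.29 after sorafenib and 13.51 after lenvatinib, and Psmb1, a subunit of its core, read 8.71, 9.12 and 8.89. Of 28 autophagy and lysosome genes 14 read higher and 7 lower. Atp6ap2, an accessory protein of the proton pump, read 11.37, 10.73 and 10.62, Ctsa, cathepsin A, read 11.83, 12.27 and 12.36, and Tmem192, of the lysosomal membrane, read 11.59, 12.06 and 12.77. Respiratory chain genes had 10 higher and 13 lower of 30, among them Ndufa1, of complex I, at 17.36, 16.94 and 17.21. Of 14 glycolysis genes 9 read higher and 2 lower, with a median of 0.06. Tpi1, triosephosphate isomerase, read 8.52, 8.96 and 8.69, and Eno1, enolase, read 13.48, 13.20 and 13.05.

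Chaperones had 6 higher and 4 lower of 13, and the furthest was Hspd1, of mitochondria, at 9.90 in control, 9.70 after sorafenib and 9.96 after lenvatinib. Of 4 drug transport genes 3 read higher and 1 lower, among them Abcc1, an efflux pump, at 7.89, 8.20 and 8.63. Megakaryocyte transcription factors had 5 higher and 2 lower of 10, and Runx1, a regulator of platelet formation, read 11.65, 11.98 and 11.84. Of 6 cell cycle genes 4 read higher and 2 lower, their median being 0.03 and their mean, of opposite sign, -0.03. Ccng1, cyclin G1, a target of p53, was the furthest, at 10.22, 9.64 and 9.71.

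**Figure D4:**
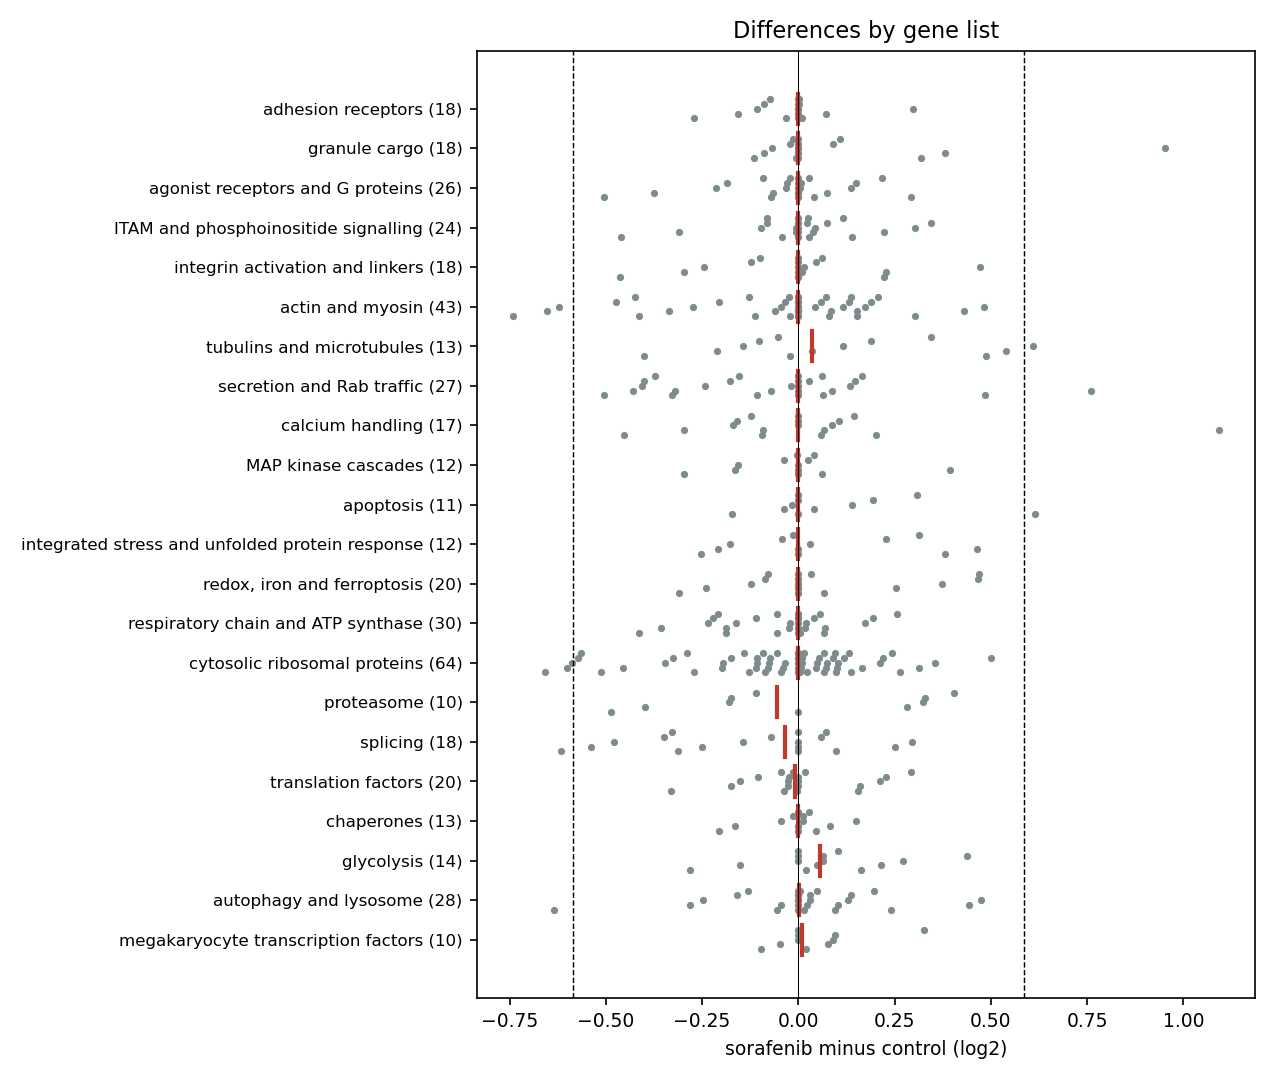
Difference of log2 signal, sorafenib minus control, for each member (grey points) of the gene lists that hold at least 10 members, with the number of members in brackets; red bars are list medians and dashed lines mark 1.5-fold. All medians lie between -0.06 and 0.06, and the points beyond 1.5-fold above are S100a11, Ecm1, Stxbp2, Cflar and Tuba1b. Those beyond 1.5-fold below are Diaph1, Rock2, Iqgap1, Rps25, Rpl27, Rpl24, Hnrnpa2b1 and Atp6ap2.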

How the data were processed

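Total RNA of pooled rat platelets was labelled with biotin and PE and read on 3 arrays, 1 per group, per the labels' protocols. The authors deposited log2 signals for 23188 features. Their background correction and normalization are not stated in the labels or file headers. A second deposited log2 table adds 1646 control features, of which 1153 are negative controls, and equals the matrix within 5e-05 on shared features.

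The platform annotation gives 1 gene symbol for 15049 features and none for 8139. Each of the 15049 IDs matched RefSeq on GRCr8, used for names and promoters only. For a gene with several features the one with the highest mean was kept, leaving 15037 genes. Differences are sorafenib minus control. Alternatives used limma 3.58.1 in R 4.3.3, and tables were made with pandas 2.3.3 in Python 3.11.15. Counting steps were tested on simulated data.

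The members and the 29 gene lists and 9 cell marker lists were chosen with earlier results of these data known. Named genes are the 15 highest and 15 lowest differences, 5 and 5 with a mean signal from 12 up, up to 4 of each list by size of difference, the target kinases, kept marker genes and genes at the ceiling. Locus numbers and genes at the ceiling were passed over in ranks. P2ry12, Tuba1a, Rpl36, the genes apart from both other arrays and the tubulin and hnRNP families were named after their values were seen. The DHHC palmitoyltransferases, the family of Zdhhc21, were grouped in the same way. They had 2 higher, 3 lower and 1 tied of 6 members, with a median of -0.08. No p-value was computed. The alternatives changed the filter on signal, the scaling (median centring, quantile normalization, cyclic loess), the feature rule, ties, the list summary and the fold.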

Additional observations from a re-analysis of the deposited data

Results flagged for a closer look

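Features without a gene symbol are not used above. Of 883 such features whose mean passed the background level of 7.69, 1 was at least 2-fold higher in the sorafenib array than in control, with values of 10.11 in control, 11.30 after sorafenib and 10.09 after lenvatinib. It was singled out because its signal lies in data outside the named genes and above the control array. A further 2 were at least 2-fold lower, at 9.43 against 8.36 and at 8.98 against 7.97. The difference has no replicate check and its gene is not named here.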

How the results depend on the processing

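Counts were held to be stable within 1.5 times, list medians within 0.1, and single genes within 0.24 unless they crossed 2-fold. All 985 recomputed values of named genes stayed within these bounds, and scaling moved them by at most 0.0719. Each named gene has 1 feature, so the feature rule could not move it. The second deposited table holds the same data and moved values by at most 0.0001. Medians over all features were already close, 4.21 in control and 4.22 after sorafenib, which left scaling little to change. This stability is therefore in large part fixed by the data and is no replicate check. No named 1.5-fold gene changed sign under any scaling, and 1.5-fold genes that are not named were not checked one by one. Counts changed with the filter, which by its construction tests fewer or more genes. With the background level at the 99th percentile of negative controls, 0 genes were at least 2-fold higher and 0 lower, and 2 and 1 were 1.5-fold higher and lower. At the median of negative controls these were 24, 24, 218 and 205, and with no filter 32, 45, 334 and 332. With both arrays required to pass, 0 genes were 2-fold lower. At 3-fold, 0 were higher and 0 lower.

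Short lists moved most. The immediate early gene median was 0.0235 at the median filter and 0.0439 with no filter. The proteasome median was -0.487 at the 99th percentile and the splicing median -0.1971 without ties. The Toll-like receptor list gave 0.0 at the median filter and with no filter, -0.1175 with both arrays required, -0.8024 without ties and -0.5349 as a mean. RNA decay gave 0.0 at the median filter and with no filter. Monocyte markers gave 0.2417 at the 99th percentile and without ties, and 0.0 at the median filter and with no filter. Neutrophil markers gave -0.0036 at the median filter and 0.0 with no filter. Leaving out ties or taking a mean summarizes the same members in another way. On the Toll-like receptor list these are 3 genes, Ly96 at -1.37, Map3k7 at -0.24 and Rela at 0. No paired analysis was possible because each group has 1 array, and for the same reason no replicate could be left out. Signals near background and at the ceiling limit what can be read.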
